A study of Homo sapiens with 6 samples.

Results

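Restriction factors are host proteins that block viruses inside the cell, each at its own step of the viral life cycle. Type I interferons bind the receptor IFNAR1/IFNAR2, the kinases JAK1 and TYK2 pass the signal on to transcription factors such as STAT2 and IRF9, which enter the nucleus and switch on genes that carry an interferon-stimulated response element (ISRE). Genes for IFIT proteins, MX GTPases, viperin (Rsad2) and tetherin (Bst2) are classical targets of this pathway, and epithelial tumour cells can express them as well as immune cells.

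With earlier results of the data known, 10 genes were chosen by name, Ifit1, Ifit2, Ifit3, Mx1, Mx2, Rsad2, Bst2, Ifitm3, Apobec3 and Samhd1. Of these, 8 were found as symbols of the deposited table of 22989 genes, all 8 passed the low-count filter, and Mx1 and Mx2, the dynamin-like GTPases, were not analysed here because the table used lists no row under either name. RNA was sequenced in 3 libraries of the genotype LINC00115 knockdown (KD) and 3 of the genotype WT. All 6 are described as paclitaxel (PTX)-resistant MDA-MB-231 breast cancer stem cells (BCSC), MDA-MB-231 being a human triple-negative breast cancer line and BCSC its fraction sorted for high aldehyde dehydrogenase activity. The knockdown was made with a lentiviral short hairpin RNA under puromycin selection, the text of the study names a control hairpin where the labels say WT, and no label says whether libraries of a group came from separate cultures, so that p-values measure the spread between these libraries, which may be technical.

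The libraries held 36979221 to 38799331 counts each, and within a group the chi-square per degree of freedom between a pair was 3.88 to 7.60, well above sampling noise, so no library repeated another. The symbols are written in the style of mouse genes, with 4648 Gm and 1129 Rik names, although the labels give a human line. Such names belong to a mouse annotation. The organism of the cells was not settled here, and the values below may not be those of human MDA-MB-231 cells. Of the 8 genes found, 7 equal a human symbol apart from case. Apobec3 does not, since humans carry several lettered APOBEC3 genes, and neither do the relatives Ifit1bl1, Ifit1bl2 and Ifit3b. Genes without a human symbol were not empty rows, with 1484 to 2190 counts for Apobec3 and 223 to 3941 for Ifit3b. No row is named LINC00115, so the knockdown could not be checked and each direction rests on the labels. Of genes chosen as markers of the labelled line, the mesenchymal gene Vim had 126885 to 145878 counts. The stem cell marker Cd44 had 32751 to 36274. The epithelial gene Cdh1 had 1 to 3 counts in WT and 22 to 31 in KD, and the epithelial gene Epcam had at most 5. Receptor genes were also chosen, as markers that should be low in a triple-negative line. Of these, Pgr had at most 3 counts. Erbb2 was not low in this way, with 592 to 689 counts in WT and 1029 to 1061 in KD. Esr1 had 24 to 29 counts in WT and 82 to 105 in KD. The aldehyde dehydrogenases that mark such sorted cells had few counts. Aldh1a1 had 8 to 17 in WT and 39 to 52 in KD, and Aldh1a3 had 0 to 4.

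The promoters of the human genes of the same names are shown first, because the ISRE is the element named above and 5 of the genes below were called higher in KD. Whether it has a part in that was not tested, and the human windows bear on the counted genes only if these are human or share the element. RefSeq windows of GRCh38.p14, from 250 bases before the transcription start to 50 after it, were matched by symbol for 6 of the 8 genes, IFIT1, IFIT3 (2 starts), RSAD2 (2 starts), BST2, IFITM3 and SAMHD1, and not for Ifit2 and Apobec3. They were not joined to coordinates of the count table, which holds none, and no mouse sequence was used. The ISRE core was searched as GAAA, any 2 bases and GAAA, on both strands, where it reads TTTC, any 2 bases and TTTC on the other strand. Capitals mark its matches, each sequence is given on the strand of its gene, and only bases before the start are printed.
IFIT1, chr10:89392482-89392554, plus strand: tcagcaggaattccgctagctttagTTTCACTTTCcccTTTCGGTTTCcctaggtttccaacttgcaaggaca
IFIT3, first start, chr10:89327816-89327909, plus strand: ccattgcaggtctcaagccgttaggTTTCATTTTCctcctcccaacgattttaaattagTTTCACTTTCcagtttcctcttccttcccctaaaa
RSAD2, second start, chr2:6877607-6877666, plus strand: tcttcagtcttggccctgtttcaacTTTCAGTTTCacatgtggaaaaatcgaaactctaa
BST2, chr19:17405720-17405785, minus strand: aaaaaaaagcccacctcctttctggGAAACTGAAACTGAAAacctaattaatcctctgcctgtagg
IFITM3, chr11:320861-320937, minus strand: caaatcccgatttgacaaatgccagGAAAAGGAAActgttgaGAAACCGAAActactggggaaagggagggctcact

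IFIT1, BST2 and IFITM3 held 2 matches each, overlapping each other in BST2. IFIT3 held 2 at the first start and 2 more at the second, and RSAD2 held 1 match at its second start and none at its first. In IFIT1 the farther match began 116 bases before the start, and in IFITM3 the farther one began 52 bases before it. The SAMHD1 window held no match, which says only that these letters are not in this window. Over all 35116 RefSeq windows of this length, 3.57% held at least 1 match, and of the 27305 genes with such windows 4.38% did in at least 1 window. The gamma-activated site, searched as TTC, any 3 bases and GAA, was found in BST2 alone among these genes, against 9.38% of all genes and 7.66% of all windows. Matches are descriptions of letters and were not tested as binding sites.

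Counts were scaled by TMM, and 13497 genes entered edgeR's quasi-likelihood test, from which every adjusted p below comes. A gene was called higher or lower when its adjusted p was under 0.05 and its level changed more than 2-fold. Of the 8 restriction factor genes, 5 were called higher and 0 lower in the KD libraries, where 10.2% of all genes tested were called higher and 9.98% lower. Rsad2, Ifit3, Ifit1, Ifit2 and Bst2 rose, from 38.0-fold to 4.38-fold. Samhd1 and Ifitm3 were higher and Apobec3 was lower by less than the fold threshold, each at an adjusted p under 0.05, as were 36.7% of all genes in each direction. The median log2 fold change of the 8 genes was 2.42, against −0.01 over all genes tested. In 7 genes every KD library lay above every WT library and in 1 every KD library lay below, where 37.8% of all genes were separated in each direction. Comparisons between genes use fold changes only, since lengths of the counted gene models were not used and levels of different genes cannot be set side by side.

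**Figure D1:**
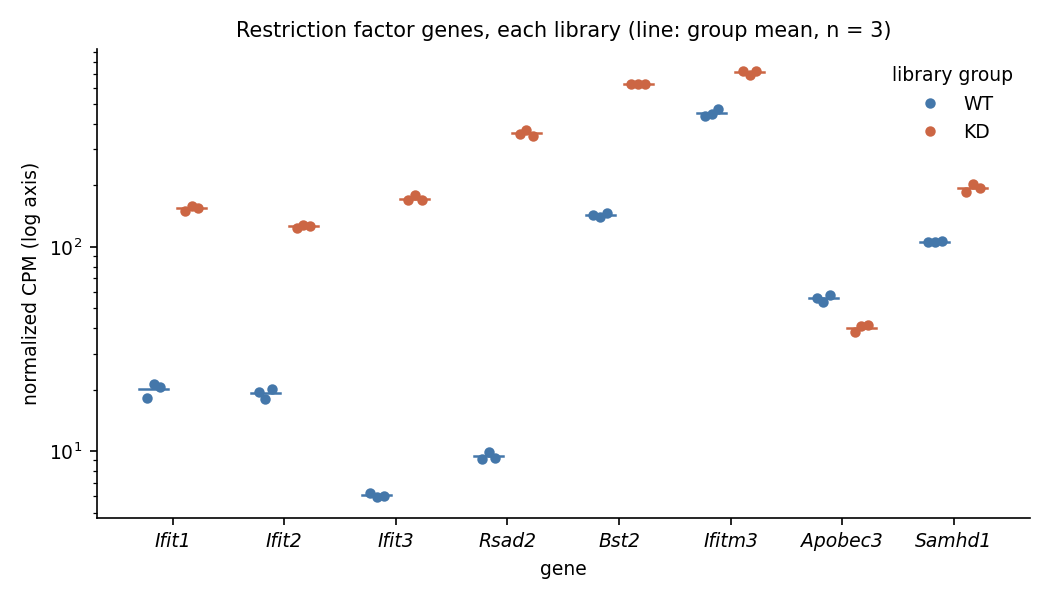
Normalized CPM (CPM, counts as a share of TMM-scaled library totals, log axis) of the 8 restriction factor genes, with a point for each library and a line for the mean of each group of 3. The KD points lie above the WT points for every gene but Apobec3, and the gap is widest for Rsad2 and Ifit3, while levels of different genes are not comparable because gene length is not corrected for.

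IFIT proteins bind foreign RNA and hold back its translation, IFIT1 by recognizing RNA whose cap lacks the host's methyl marks and IFIT2 and IFIT3 as its partners in one complex. Ifit1 had 683, 806 and 783 counts in the WT libraries and 5820, 5816 and 5867 in the KD libraries. The KD libraries were close to one another and all far above the WT libraries. It rose from 20.1 ± 1.71 to 154 ± 3.98 normalized CPM (SD, n = 3 libraries a group), or by 2.94 on the log2 scale with a standard error of 0.05 (edgeR adjusted p = 1.92e-31). Ifit2, also known to promote apoptosis, had 736, 680 and 764 counts in WT and 4796, 4708 and 4833 in KD. Again the groups did not overlap. The change was 7.70-fold for Ifit1 and 6.57-fold for Ifit2 (log2 2.72, standard error 0.05).

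Ifit3, which stabilizes IFIT1 and bridges antiviral signalling proteins, had a larger fold change than Ifit1 and Ifit2. Its counts were 234, 226 and 227 in WT and 6540, 6590 and 6402 in KD. The WT libraries differed by only 2.04% (coefficient of variation), the KD libraries by 3.58%. The rise was 28.4-fold, from 6.07 ± 0.124 to 172 ± 6.18 normalized CPM (SD, n = 3), or 4.83 on the log2 scale with a standard error of 0.06 (edgeR adjusted p = 1.61e-36), which ranked 134 among the increases of all 13497 genes.

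Whether the 3 IFIT genes moved by one common factor was examined in ratios taken within each library, where library size cancels. The log2 ratio of Ifit1 to Ifit3 was 1.54, 1.83 and 1.78 in WT and −0.17, −0.18 and −0.13 in KD. The ratio lay above 0 in each WT library and below 0 in each KD library. It differed by −1.88 between the groups (standard error 0.09), a 3.68-fold difference in how far the genes moved. Ifit2 to Ifit3 changed by −2.11 (standard error 0.05), from a mean of 1.66 to −0.45. For Ifit1 to Ifit2 the ratio was −0.11, 0.25 and 0.04 in WT and 0.28, 0.30 and 0.28 in KD, a difference of 0.23 (standard error 0.10), and the highest WT library came close to the KD libraries. Each of the 3 pairs gave p = 0.1 in an exact two-sided permutation test over libraries, also after adjustment over the 3 pairs, which is the smallest p that 3 libraries against 3 allow. Only the change of a ratio is meaningful here, since its level also depends on gene length.

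**Figure D2:**
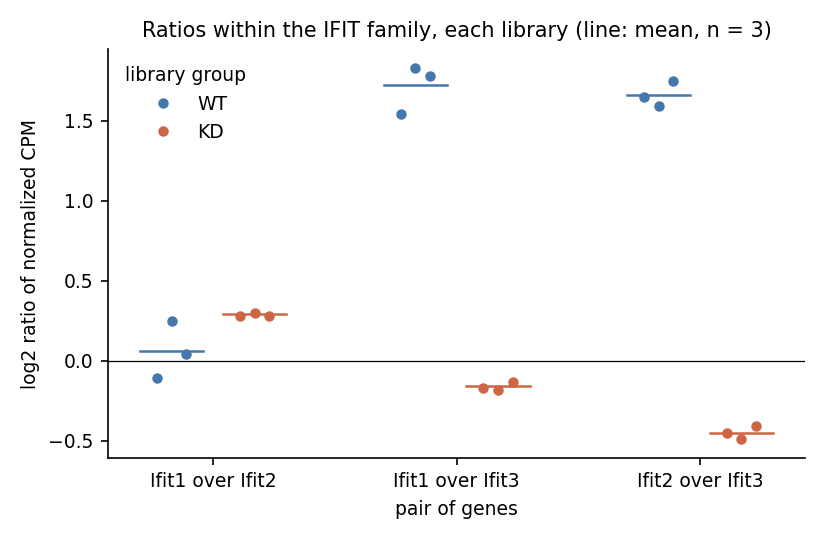
Log2 ratio of the normalized CPM of 2 IFIT genes in each library, with a line for the mean of each group of 3. Both ratios to Ifit3 drop from above 1.5 in the WT libraries to below 0 in the KD libraries, whereas the ratio of Ifit1 to Ifit2 shifts by 0.23.

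Near-identical copies can share reads, and the counting rule for such reads was not given in the sources used here, so values of close relatives are uncertain. Of the 3 IFIT relatives in the table, all 3 were called higher, against 10.2% of all genes tested. Ifit3b, the closest copy of Ifit3, had 285, 223 and 344 counts in WT and 3941, 3762 and 3727 in KD, a log2 fold change of 3.74. Ifit1bl2 had 48, 31 and 69 counts in WT and 512, 593 and 535 in KD (log2 fold change 3.47). Ifit1bl1 had 4 to 14 counts in WT and 15 to 37 in KD, with a log2 fold change of 1.74 and a standard error of 0.56, and was no longer called without WT replicate 2 (1.40, edgeR adjusted p = 0.0557). When the counts of these copies were added to those of their relative, a choice made after the data were seen, the log2 fold change was 2.97 for Ifit1 and 4.33 for Ifit3, so Ifit3 still moved further than Ifit1.

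Rsad2 encodes viperin, a radical SAM enzyme that turns CTP into a chain-terminating nucleotide analogue which stops viral polymerases. Its counts were 345, 372 and 351 in WT and 13730, 13784 and 13163 in KD, so the lowest KD library exceeded the highest WT library many times. It had the largest fold change of the 8 genes, from 9.43 ± 0.370 to 359 ± 14.9 normalized CPM (SD, n = 3), or 5.25 on the log2 scale with a standard error of 0.05 (edgeR adjusted p = 2.06e-39), ranking 111 among all increases. Cmpk2, a nucleotide kinase whose human gene is the direct neighbour of RSAD2 on chromosome 2 in the RefSeq gene order of GRCh38.p14, had 421, 468 and 443 counts in WT and 17095, 16721 and 16752 in KD. Its log2 fold change of 5.24 (standard error 0.05) was nearly that of Rsad2. The IFIT genes also lie side by side in the human order on chromosome 10 (IFIT2, IFIT3, IFIT1B, IFIT1, IFIT5), yet their fold changes differed as given above.

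Bst2 and Ifitm3 act at membranes. Bst2 encodes tetherin, which ties budding virions to the cell surface. It had 5383, 5297 and 5526 counts in WT and 24312, 22926 and 23867 in KD. The normalized CPM varied by only 2.08% and 0.367% within the groups. Bst2 rose 4.38-fold, from 143 ± 2.98 to 627 ± 2.30 normalized CPM (SD, n = 3), or 2.13 on the log2 scale with a standard error of 0.03 (edgeR adjusted p = 1.97e-33).

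Ifitm3 encodes a membrane protein of endosomes that hinders fusion of incoming viruses. It had 16511, 16905 and 17763 counts in WT and 28129, 25562 and 27684 in KD. The groups did not overlap, but the change was small, at 1.59-fold (452 ± 16.3 to 717 ± 18.4 normalized CPM, SD, n = 3; log2 fold change 0.67, standard error 0.03, edgeR adjusted p = 5.13e-19), and it was not called. Its relative Ifitm2, a factor of the same kind, went the other way, with 6267, 6216 and 6524 counts in WT and 3524, 3220 and 3718 in KD and a log2 change of −0.86 with a standard error of 0.04 (edgeR adjusted p = 6.32e-19), also short of the fold threshold. With Ifitm1 and Ifitm2 added to it, Ifitm3 had a log2 fold change of 0.38. Ifitm1, Ifitm5 and Ifitm6 had at most 51 counts in any library and none differed at an adjusted p under 0.05 (0.0654 for Ifitm1 in edgeR, which without WT replicate 3 was called lower at 0.0345), and Ifitm10, with at most 16, did not pass the filter.

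The 2 enzymes that act on nucleic acids or their building blocks did not reach the fold threshold and differed in opposite directions. Samhd1 encodes a triphosphohydrolase that lowers the pool of deoxynucleotides needed for reverse transcription. It had 3981, 3996 and 4040 counts in WT and 7169, 7440 and 7411 in KD. All KD libraries were higher by a similar step, 1.83-fold (106 ± 0.676 to 194 ± 8.68 normalized CPM, SD, n = 3; log2 fold change 0.87, standard error 0.04, edgeR adjusted p = 6.25e-20), which stayed under the fold threshold.

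Apobec3 encodes a cytidine deaminase that mutates retroviral DNA, and it was the one gene of the 8 with less RNA in the KD libraries. Its counts were 2118, 2023 and 2190 in WT and 1484, 1499 and 1578 in KD. Each KD library lay below each WT library. The level was 55.9 ± 2.20 normalized CPM in WT and 40.2 ± 1.67 in KD (SD, n = 3), or 1.39-fold lower, a log2 change of −0.47 with a standard error of 0.06 (edgeR adjusted p = 4.49e-09), and it was negative under each scaling tried (−0.52 with upper quartile scaling, −0.49 with library size alone). Apobec1, a deaminase that edits RNA and the relative with enough counts to test, had 180, 187 and 174 counts in WT and 978, 939 and 882 in KD, a log2 fold change of 2.37. Apobec2, with at most 1 count, was not tested.

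**Figure D3:**
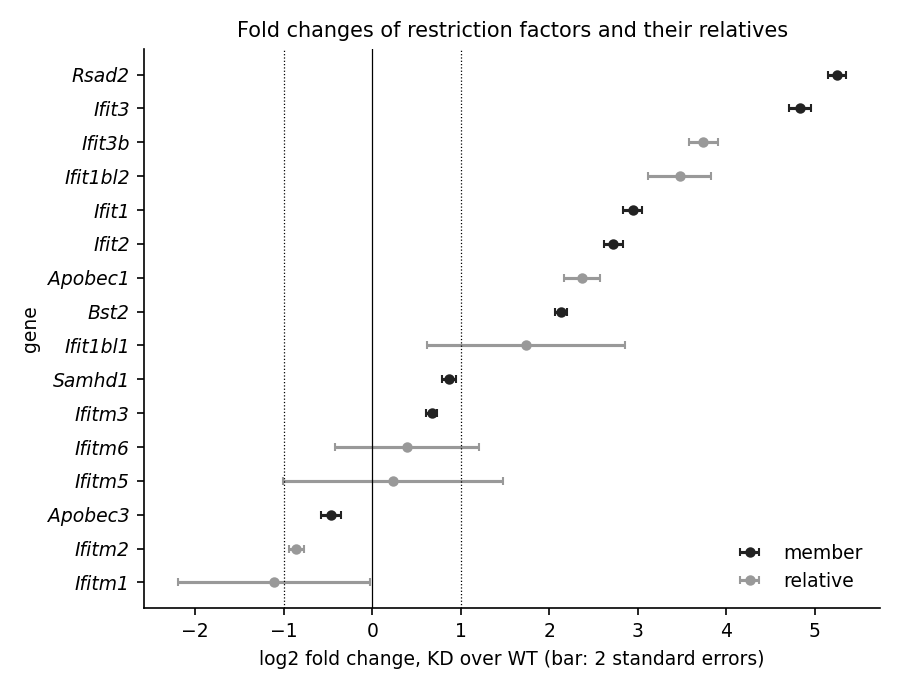
Log2 fold change of KD over WT for the 8 restriction factor genes (black) and their tested relatives (grey), with bars of 2 standard errors and dotted lines at a fold change of 2. Rsad2 (5.25) and Ifit3 (4.83) are farthest to the right, Samhd1 and Ifitm3 lie between 0 and the dotted line, and Apobec3 (−0.47) and Ifitm2 (−0.86) lie to the left of 0.

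The other genes of the interferon pathway were read from 5 lists, whose 129 symbols include the 13 relatives above. These lists, too, were chosen with earlier results of the data known. Of 101 genes tested, 58 were called higher and 6 lower, with a median log2 fold change of 1.39. The list of other antiviral genes was highest, with 40 of 52 genes called higher, 1 lower and a median of 1.81, against 10.2% called higher and a median of −0.01 over all genes. Its largest increases among well-counted genes were those of Cmpk2, given above, Ifi27l2a (4.48), the OAS-like gene Oasl1 (4.21), Phf11b (3.90) and the guanylate-binding protein gene Gbp5 (3.33). Ifi27 was the gene called lower, from 3380, 3309 and 3283 counts in WT to 1473, 1120 and 1293 in KD (log2 fold change −1.36).

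Among the ligands, Ifnb1, the gene of interferon beta, had 1, 5 and 1 counts in WT and 40, 66 and 87 in KD. These are few counts, but all KD libraries exceeded the WT libraries, and the gene was called higher (log2 change 4.71 with a standard error of 0.60, edgeR adjusted p = 1.56e-08). It was not tested with a minimum of 10 counts in every sample. The other 9 ligand genes in the table had at most 6 counts in any library and did not pass the filter. Receptors were not called, with log2 fold changes of −0.54 for Ifnar1 and 0.27 for Ifnar2 and a range of −0.80 to 0.27 over the 5 tested.

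Transcription factors of the pathway were among the genes called higher. Stat2 had 1914, 1859 and 2170 counts in WT and 8660, 8525 and 8474 in KD, a log2 fold change of 2.11. Irf9, its partner, changed by 1.04 on the same scale, where it was just under the fold threshold with upper quartile scaling (0.997) and without WT replicate 1 (0.984). Irf7, the factor that amplifies interferon production, rose by 2.67. Of the kinases, Tyk2 was called lower (−1.30), and Jak1 was not called (−0.28). Usp18, which shuts down signalling at the receptor, rose by 2.32 and Socs1, another inhibitor, by 1.15, whereas the phosphatase gene Ptpn6 fell from 69.6 ± 2.44 to 12.2 ± 0.988 normalized CPM (SD, n = 3; log2 fold change −2.51) and Irf8 also fell (−1.06, or −0.956 and not called without KD replicate 2). Over the 18 transducers, 6 were called higher and 3 lower, against 10.2% and 9.98% of all genes, with a median of 0.28.

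Of 17 sensors of nucleic acids and their partners, 7 were called higher and 2 lower, with a median of 0.89, and the 2 lower genes are close to the 9.98% called lower over all genes, against 10.2% called higher. The largest increases were those of Zbp1, a sensor of Z-form nucleic acids (log2 fold change 3.56), Aim2, a sensor of DNA (2.57), Tlr3, the receptor for double-stranded RNA in endosomes (2.41), and the RIG-I-like helicases Dhx58 (2.27) and Ifih1 (2.23). The RNase H subunit gene Rnaseh2c (−1.25) and the kinase gene Ikbke (−1.11) were called lower.

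The genes outside the set whose pattern was nearest to the median of the 8 genes, by the root mean square distance of centred log2 CPM over the 6 libraries, included Hmcn2 (distance 0.0457), Oasl2 (0.0478), Usp18 (0.0572) and Znfx1 (0.0595). With only 2 groups this measure mainly finds genes with a similar fold change, here log2 2.32 to 2.50. Oasl2, Usp18 and Znfx1 are interferon-inducible, and Hmcn2, an extracellular matrix gene, had only 37, 37 and 38 counts in WT and 191, 197 and 191 in KD.

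Markers of other cell types were also compared, against 37.8% of all genes that were higher and 37.8% that were lower without overlap. The summed level of 13 leukocyte markers was 87.9 to 99.4 normalized CPM in WT and 195 to 211 in KD. Of the 13, 5 were higher, close to that share, and 1 was lower (Csf1r, at most 3 counts). The 5 were Lyz2, S100a8, S100a9, Cd74 and Cd14, and each was also called higher. S100a8 had a mean of 33.0 normalized CPM in WT and 95.2 in KD, and Cd14 had 15.7 and 50.9. Cd68, with 42.8 and 47.2, overlapped between the groups. The pan-leukocyte gene Ptprc had 5 to 13 counts and the T cell gene Cd3e 0 counts in every library. The 11 lung markers summed to 1.73 to 2.12 in WT and 75.2 to 86.5 in KD, with 11 higher and 6 of them at 0 in every WT library. The sum of 12 kidney markers was 16.8 to 19.6 in WT and 41.7 to 45.8 in KD (8 higher, 1 lower, 6 at 0 in WT). Endothelial markers, 7 in number, summed to 1.19 to 1.83 and 57.4 to 59.8 (2 higher, 1 lower, Emcn at 0 in WT), in KD nearly all of it Cdh5, and 6 fibroblast markers to 174 to 193 and 76.2 to 78.0 (3 lower, Lum at 0 in KD). Nearly all of the fibroblast sum was Pdgfra, with a mean of 177 normalized CPM in WT and 74.5 in KD. In bulk RNA, a change in the share of a cell type and in RNA per cell cannot be told apart, and the part of these cells in the values of the restriction factor genes was not tested. An effect of the hairpin or its vector and one of losing LINC00115 cannot be told apart either, since all libraries of a group share 1 label. For the same reason, neither can be told apart from any other difference between the cells of the 2 groups.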

How the data were processed

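Total RNA of 6 libraries was sequenced. The authors trimmed adapters and mapped reads with HISAT2; the methods name hg19, and the submitters' processing notes name hg38, featureCounts and DESeq2. Annotation and use of strand are not given in the sources used here. The authors deposited 1 table of raw counts per gene symbol, without normalization; 0 columns of values were left out. Columns were assigned to samples by the sample descriptions.

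The main test used edgeR 4.0.16 in R 4.3.3 (filterByExpr, minimum count 10 and total 15; TMM; quasi-likelihood test, group only; Benjamini-Hochberg over 13497 genes). The thresholds on the adjusted p and the fold change follow the study's methods. Standard errors were derived from the log2 fold change and F. Normalized CPM used the library totals (36979221 to 38799331 counts) multiplied by TMM factors of 0.9901 to 1.014; the common coefficient of variation was 5.21%. Ratios used a prior of 0.5 count. The pipeline was tested on simulated data. The genes and lists were chosen with earlier results of these data known. Named are all members, the 5 largest calls per list and direction whose higher group had 100 counts or more in each library, 8 fixed genes and the 5 nearest patterns (2 genes counted in the lists are not reported here by name); other genes were chosen after their values were seen. Alternatives were other scalings, filters, DESeq2 1.42.0, left-out replicates and the replicate number as a block.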

Additional observations from a re-analysis of the deposited data

How the results depend on the processing

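Over the alternative fits, the 8 restriction factor genes gave 107 log2 fold changes. All 107 kept the direction of the main fit and its side of an adjusted p of 0.05. In each refit with the fold-change threshold, 5 of the 8 genes were called higher. With each replicate left out, Rsad2 changed by 5.23 to 5.28 on the log2 scale, Ifit3 by 4.81 to 4.85 and Apobec3 by −0.50 to −0.43. Without the threshold on the fold change, 1 of the 8 genes counted as lower (Apobec3) and 7 as higher, 19 genes of the 5 pathway lists as lower (6 with it), and 4960 genes over the table as lower and 4952 as higher (1347 and 1381 with it). With at least 10 counts in every sample, 903 genes were called higher, a filter under which genes near 0 counts in WT are not tested. The replicate numbers did not pair the libraries: deviations of same-numbered libraries correlated at 0.0421, −0.0147 and −0.0214, and with the number as a block 5 of the 8 genes and 1360 genes over the table were called higher. None of the 8 genes had a count of 0 in any library, while a count of 0, as in several ligand genes, allows up to 3 counts by counting error alone.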
